A study of Arabidopsis thaliana with 6 samples.

Results

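Genes that encode membrane transporters for water, sugars and nitrogen compounds were examined in *Arabidopsis thaliana* rosettes after 48-h light submergence. The genes were chosen by symbol from the array's annotation, which had to begin with a family name of the water channels (PIP, TIP, NIP, SIP), the sugar transporters (SUC, STP, SWEET), the transporters of nitrate, ammonium, amino acids and peptides (NRT, AMT, AAP, LHT, PTR), or the phosphate and sulfate transporters (PHT, SULTR). The symbol rule itself used no expression value, but the families were chosen with earlier results of these data known. Of 22746 probe sets on the array, 13513 were assigned to 1 gene, 503 to several genes and 8730 to none, and 17 of the 13513 carried a matching symbol, each for a different gene. These were 14 SWEET genes, 1 nitrate transporter gene (*NRT2.5*) and 2 genes whose symbol matched although the protein is no transporter. These 2 are *SWEETIE*, which encodes a very large protein tied to sugar and trehalose balance, and *AAPT2*, which encodes an aminoalcoholphosphotransferase of phospholipid synthesis. They were kept apart from the 15 transporter genes. No water channel gene carried a symbol of this kind in the annotation, so the comparison between substrate groups came down to 14 sugar transporter genes and 1 nitrogen transporter gene, and the other families were not analysed here in that comparison.

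Transcripts were measured on ATH1 arrays, 1-colour oligonucleotide arrays, in 3 samples from plants kept under water for 48 h in the light and in 3 samples from untreated control plants at 0 h. All plants were wild-type Columbia, 4 weeks old at the start, grown in cycles of 16 h light and 8 h dark, and the paper's methods give 3 plants for each replicate. The control was taken at 0 h and the submerged plants were sampled 48 h later, at a greater age, and the methods give a lower light intensity under water than for growth, whereas the deposited labels speak of normal growth conditions. Age, light and submergence therefore cannot be told apart. The labels name leaves as the tissue and the paper names rosettes. Either way the RNA came from a mixture of cell types, in which fewer cells of a type and less RNA per cell cannot be told apart.

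SWEET proteins are uniporters that let sugars pass a membrane along their gradient, unlike the SUC and STP carriers, which use the proton gradient to load sugars into cells. *Arabidopsis* SWEETs form clades numbered I to IV. Clades I and II mainly carry hexoses, clade III mainly carries sucrose and includes the proteins that release sucrose beside the phloem for export from leaves, and clade IV sits in the vacuolar membrane and carries fructose. NRT2 proteins are high-affinity nitrate carriers, and NRT2.5 is the member known for induction by long nitrogen starvation. The large NRT1/PTR family, now named NPF, holds low-affinity nitrate carriers, peptide carriers and carriers of glucosinolates and hormones.

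The deposited values are log2 signals, and a step of 1 on this scale is a 2-fold difference in signal. The 40th percentile of each array served as its background level, and it lay at a log2 signal of 5.55 to 5.84 on the submerged arrays and 6.17 to 6.39 on the control arrays. A gene was called changed when limma, fitted to all 22746 probe sets, gave an adjusted p under 0.05 and a difference of at least 1.5-fold. Of all probe sets, 9684 passed this test, which is 42.6%, with 4159 higher (18.3%) and 5525 lower (24.3%) after light submergence. The arrays correlated at 0.921 within light submergence, at 0.909 to 0.924 within the controls and at 0.732 to 0.806 between the conditions. The difference had a median of -0.26 (log2 scale) over all probe sets, and of 0.02 after quantile normalization, so small differences depend on the scaling. Among the marker genes chosen to check the tissue, *RCA*, which encodes the Rubisco activase of mesophyll chloroplasts, had log2 signals of 14.15, 13.66 and 14.30 on the submerged arrays and 15.29, 15.23 and 14.90 on the control arrays, among the bright signals of the array. It was the only 1 of 6 mesophyll markers that the annotation named, and it fell 2.16-fold (log2 difference -1.11, SE 0.25, adjusted p = 0.00457). Its part in the transporter results was not tested.

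Of the 15 transporter genes, 6 were changed after light submergence, 3 upward and 3 downward, and 9 did not pass. This share is close to the 42.6% of all probe sets that changed. *NRT2.5*, *SWEET2* and *SWEET11* rose, and *SWEET17*, *SWEET14* and *SWEET1* fell. The signals of the 2 conditions did not overlap for 6 of the 15 genes, against 54.7% of all probe sets. Only 3 of the 15 lay above background on all 6 arrays, 9 on at least 1 array and 6 on no array.

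**Figure D1:**
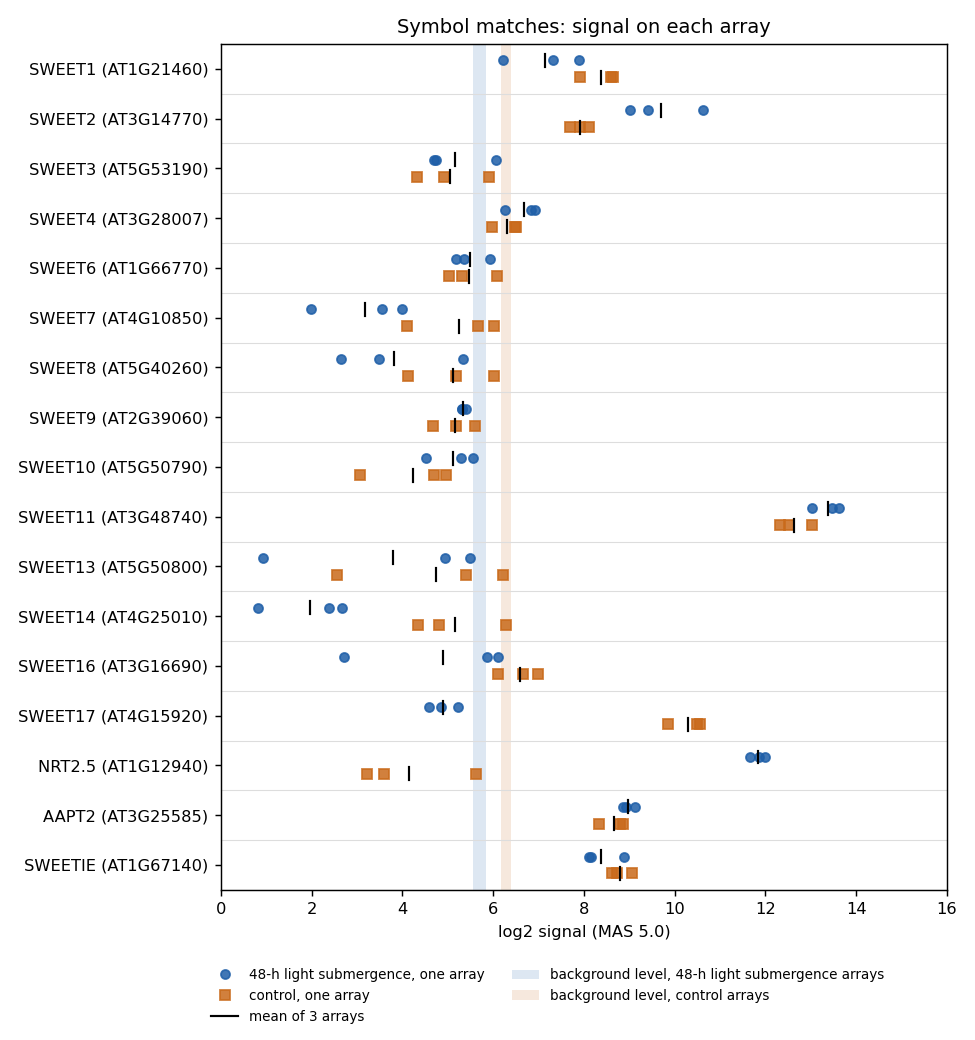
Log2 signal (x axis) of each of the 17 genes that matched by symbol, 1 row per gene. Circles are the 3 light submergence arrays, squares the 3 control arrays and vertical ticks the means of 3 arrays, and the shaded bands give the range of background levels in each condition. *NRT2.5* lies far above the band in every submerged sample and below it in every control, *SWEET17* shows the opposite, and most SWEET genes lie in or below the bands.

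*NRT2.5* (AT1G12940), the nitrate carrier, had log2 signals of 11.98, 11.65 and 11.85 after light submergence and 3.23, 5.62 and 3.61 in the control. The transcript was well above background in each submerged sample and below it in each control, with a wide gap between the conditions. The mean was 11.83 ± 0.17 after light submergence and 4.15 ± 1.28 in the control (SD, n = 3 each), a difference of 7.67 on the log2 scale (SE 0.51, adjusted p = 1.43e-06). Because the control values lie below background, the increase is given as a bound, and *NRT2.5* was at least 45.9-fold higher after light submergence. *NRT2.5* is also known as a root gene, and a part of root RNA in its increase was not tested. Of 7 root markers, the annotation named 2. Both lay near or below background, and neither passed the test. *EXPA7*, a root hair expansin gene, was below background on all 6 arrays, and *PYK10*, a root beta-glucosidase gene, had 5.20, 4.07 and 4.19 on the submerged arrays and 5.15, 6.44 and 4.91 on the control arrays, above background on 1 control array alone.

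*SWEET17* (AT4G15920), which encodes a fructose carrier of the vacuolar membrane, showed the largest decrease among the 15 genes. Its log2 signals were 5.23, 4.85 and 4.58 after light submergence and 9.86, 10.56 and 10.48 in the control. All submerged samples were below background, and all controls were above it by several units. The mean was 4.89 ± 0.32 after light submergence and 10.30 ± 0.39 in the control (SD, n = 3 each), and the difference was -5.42 (SE 0.29, adjusted p = 3.86e-07). As a bound, *SWEET17* was at least 23.6-fold lower after light submergence. The other clade IV gene, *SWEET16* (AT3G16690), a vacuolar carrier of several sugars, had 6.10, 2.72 and 5.86 after light submergence and 6.99, 6.66 and 6.10 in the control. The conditions met at 6.10 and the second submerged sample stood far below the rest, and the difference of -1.69 did not pass (SE 0.85, adjusted p = 0.140).

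Among the clade I genes, 1 rose, 1 fell and 1 did not pass, beside 18.3% of all probe sets higher and 24.3% lower. The clades hold too few genes to be compared by such counts. *SWEET2* (AT3G14770), which encodes a vacuolar sugar carrier known in roots for holding back sugar loss to the soil, had 9.42, 10.63 and 9.03 after light submergence and 8.12, 7.68 and 7.91 in the control. Every submerged sample was above every control, and the gene rose 3.45-fold (log2 difference 1.79, SE 0.35, adjusted p = 0.00185). *SWEET1* (AT1G21460), which encodes a glucose carrier of the plasma membrane, had 7.31, 6.22 and 7.90 after light submergence and 8.64, 7.91 and 8.59 in the control. The nearest samples, at 7.90 and 7.91, almost touched, and the gene fell 2.36-fold (log2 difference -1.24, SE 0.40, adjusted p = 0.0286). The call did not hold without control replicate 1 or 3 or without light submergence replicate 1 or 2, with adjusted p from 0.0523 to 0.101. *SWEET3* (AT5G53190) differed by 0.11 and was above background on 1 submerged array.

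The 5 clade III genes gave 1 gene that rose, 1 that fell and 3 that did not pass. Of all probe sets, 18.3% were higher and 24.3% lower. *SWEET11* (AT3G48740), which encodes a sucrose carrier that supplies phloem loading in leaves, had 13.62, 13.03 and 13.46 after light submergence and 13.03, 12.52 and 12.32 in the control. The lowest submerged sample and the highest control met at 13.03, so the conditions touched, and the gene rose 1.68-fold (log2 difference 0.74, SE 0.23, adjusted p = 0.0234). This call was lost without control replicate 2 or 3 or without light submergence replicate 1 or 3, with adjusted p from 0.0580 to 0.105. *SWEET14* (AT4G25010), whose protein carries sucrose and gibberellin, had 2.39, 2.66 and 0.81 after light submergence and 6.28, 4.82 and 4.35 in the control. It passed the test as lower (log2 difference -3.20, SE 0.94, adjusted p = 0.0184), but no sample was above background, so no fold is given. Its call was lost without control replicate 1 (adjusted p = 0.0773) and without light submergence replicate 3 (adjusted p = 0.0558). *SWEET9* (AT2G39060), the nectary sucrose carrier gene, had 5.32, 5.32 and 5.39 after light submergence and 5.18, 5.61 and 4.68 in the control, below background throughout. *SWEET10* (AT5G50790) and *SWEET13* (AT5G50800), which differed by 0.88 and -0.94 without passing, were also below background on all arrays. These 2 genes are neighbours on the chromosome with 0 protein-coding genes between them, and SWEET13 is known to act with SWEET14 in gibberellin transport.

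None of the 4 clade II genes passed the test, beside 42.6% of all probe sets that changed. *SWEET4* (AT3G28007), which encodes a hexose carrier, had 6.84, 6.27 and 6.93 after light submergence and 6.48, 5.97 and 6.49 in the control, values close to background that overlapped (log2 difference 0.36, SE 0.39, adjusted p = 0.50). *SWEET7* (AT4G10850), a hexose carrier gene, had 3.56, 1.99 and 3.98 after light submergence and 6.01, 5.67 and 4.09 in the control. The submerged samples were all lower, but every sample was below background and the difference of -2.08 did not pass (SE 0.89, adjusted p = 0.0856). *SWEET6* (AT1G66770) had 5.18, 5.94 and 5.35 after light submergence and 5.30, 6.08 and 5.03 in the control, a difference of 0.02. *SWEET8* (AT5G40260), the pollen wall gene also known as RPG1, differed by -1.28 without passing and was below background on all arrays. The median difference over all 14 SWEET genes was -0.46, beside -0.26 over all probe sets. This median turned to 0.0095 after quantile normalization and to 0.18 without light submergence replicate 1.

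**Figure D2:**
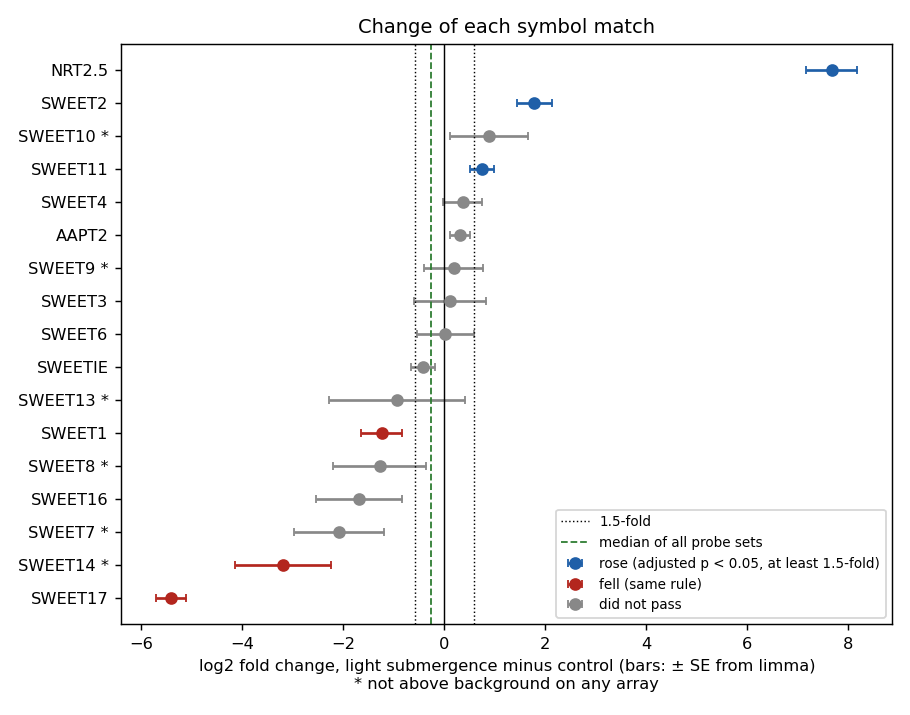
Difference between light submergence and control on the log2 scale (x axis, light submergence minus control) for the 17 genes, ordered by size, with the standard error from limma. Blue marks genes that rose, red genes that fell and grey genes that did not pass, the dashed line is the median of all probe sets, and an asterisk marks genes above background on no array. *NRT2.5* at 7.67 and *SWEET17* at -5.42 stand apart from the other genes, whose error bars are widest where the signal is below background.

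The matches that are no transporters did not pass the test. *SWEETIE* (AT1G67140) had 8.10, 8.14 and 8.88 after light submergence and 8.62, 9.06 and 8.74 in the control (log2 difference -0.43, adjusted p = 0.187). *AAPT2* (AT3G25585) had 8.92, 9.13 and 8.86 after light submergence and 8.33, 8.79 and 8.86 in the control (log2 difference 0.31, adjusted p = 0.231). The conditions overlapped for both genes.

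Relatives that the annotation names under other symbols were found through the synonyms of the TAIR10.1 gene table, which gave 2 further SWEET genes and 11 genes of the NRT1/PTR family. Neither SWEET relative passed. *SWEET5* (AT5G62850), also known as AtVEX1 and expressed in pollen, had 0.61, 5.62 and 3.32 after light submergence and 5.51, 6.09 and 5.93 in the control (log2 difference -2.66, adjusted p = 0.0865). Among the alternatives run, it passed only without light submergence replicate 2, its highest submerged sample (adjusted p = 0.0118). *SWEET15* (AT5G13170), the senescence gene SAG29, was below background on all 6 arrays and differed by -1.17 (adjusted p = 0.321).

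The 11 NRT1/PTR genes held 1 that rose, 6 that fell and 4 that did not pass, beside 18.3% of all probe sets higher and 24.3% lower. The median difference of the 11 was -1.21, beside -0.26 over all probe sets. They are only the part of the family that the annotation names, so the counts do not describe the whole family. *NRT1:2*, *PTR2* and *PTR6*, also of this family, were higher, but they were selected for their increase and are described further below. The largest decrease was that of *NPF6.4* (AT3G21670), also known as NRT1.3, a nitrate carrier gene of leaves. Its log2 signals were 5.12, 5.65 and 5.06 after light submergence and 10.18, 10.46 and 10.04 in the control. Only 1 of the 3 submerged samples was above background, and the gene was at least 21.9-fold lower, with samples below background set to that level (log2 difference -4.95, SE 0.25, adjusted p = 2.97e-07). *NPF3.1* (AT1G68570), whose protein carries nitrite and gibberellin, had 5.39, 6.09 and 6.89 after light submergence and 9.34, 9.11 and 9.32 in the control. The submerged samples were spread, 2 of 3 above background, and all were lower, and the gene was at least 7.91-fold lower (log2 difference -3.13, SE 0.35, adjusted p = 4.1e-05). *NPF6.2* (AT2G26690), also known as NRT1.4, which stores nitrate in the petiole, had 8.96, 8.83 and 8.94 after light submergence and 10.76, 10.02 and 10.59 in the control. The conditions were clearly apart, and the gene fell 2.92-fold (log2 difference -1.55, SE 0.19, adjusted p = 9.17e-05).

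The genes for the glucosinolate importers changed in opposite directions. *NPF2.10* (AT3G47960), also known as GTR1, had 9.10, 8.46 and 9.23 after light submergence and 10.48, 10.69 and 10.50 in the control, and fell 3.09-fold (log2 difference -1.63, SE 0.20, adjusted p = 9.07e-05). *NPF2.11* (AT5G62680), also known as GTR2, had 11.79, 11.54 and 11.91 after light submergence and 9.51, 9.42 and 9.74 in the control, and rose 4.57-fold (log2 difference 2.19, SE 0.15, adjusted p = 1.97e-06). The samples did not overlap for either gene, and *NPF2.11* was the only gene of the 11 that passed as higher. The difference between the responses of these 2 genes was not tested.

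The other genes of the family lay closer to background. *NPF4.4* (AT1G33440) was above background in the control alone and was at least 2.22-fold lower after light submergence (adjusted p = 0.00627). *NPF4.3* (AT1G59740) had 5.59, 5.88 and 5.83 after light submergence and 7.32, 6.77 and 6.85 in the control, with 2 of 3 submerged samples above background, and was lower by a factor of at least 2.19 (adjusted p = 0.0256), a call that was lost after quantile normalization (adjusted p = 0.180) and without control replicate 1 or 3 or light submergence replicate 1 (adjusted p from 0.0572 to 0.101). *NPF5.13*, *NPF4.2*, *NPF4.5* and *NPF4.1* differed by -0.30, -0.25, 0.67 and 1.41 and did not pass.

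**Figure D3:**
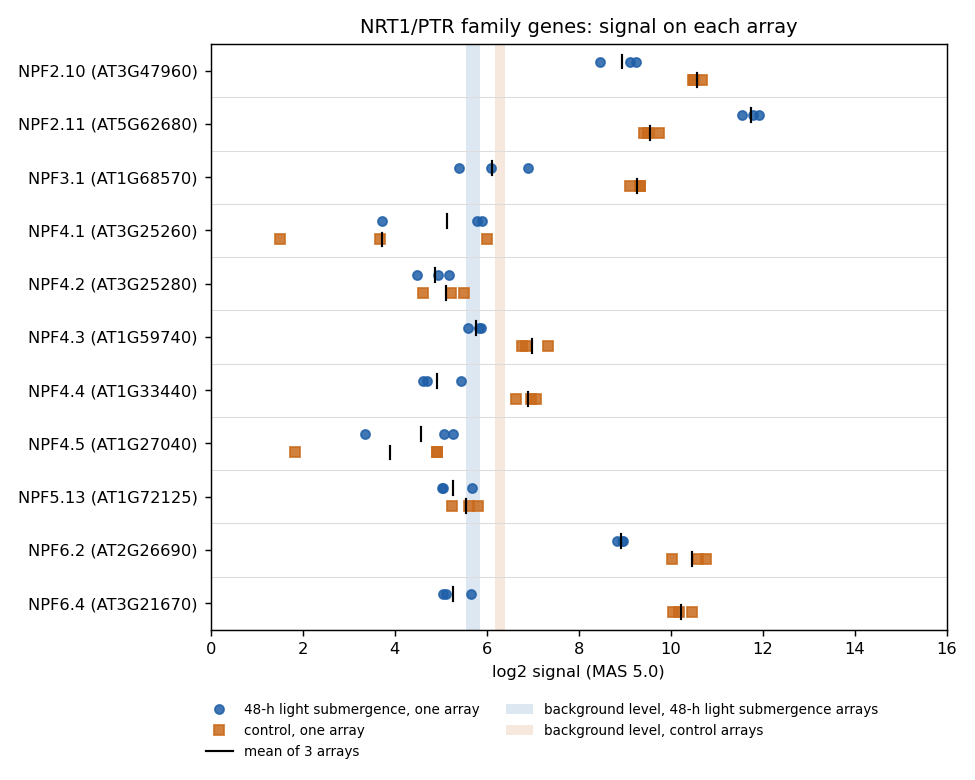
Log2 signal (x axis) of the 11 NRT1/PTR family genes, 1 row per gene, with circles for the 3 light submergence arrays, squares for the 3 control arrays, ticks for the means and shaded bands for the range of background levels. *NPF6.4* and *NPF3.1* are bright in the control and near background after light submergence, and *NPF2.11* is the only gene that passed the test with brighter submerged samples.

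**Figure D4:**
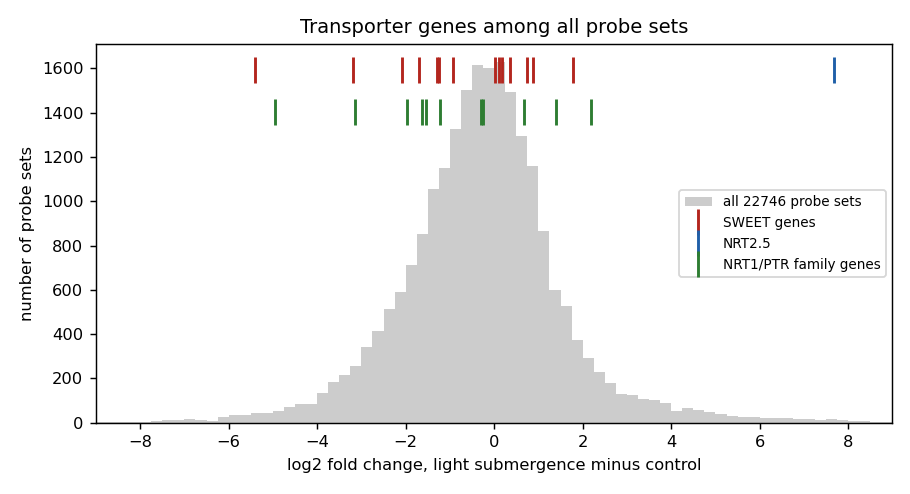
Number of probe sets (y axis) by difference between light submergence and control on the log2 scale (x axis) for all 22746 probe sets, with vertical marks for the SWEET genes, *NRT2.5* and the NRT1/PTR family genes. Most SWEET genes lie in the middle of the distribution, *SWEET17* at -5.42 and *SWEET14* at -3.20 lie in its lower tail, and *NRT2.5* lies in its far upper tail.

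Of 16 other genes listed for sugar transport, 4 were named in the annotation. Among these, 1 rose, 2 fell and 1 did not pass, beside 42.6% of all probe sets that changed. The tonoplast monosaccharide transporters, which import hexoses into the vacuole against a gradient, differed from each other in direction. *TMT1* (AT1G20840) had 11.87, 12.15 and 12.16 after light submergence and 10.74, 10.33 and 10.93 in the control, and rose 2.62-fold (log2 difference 1.39, SE 0.18, adjusted p = 0.000113). *TMT2* (AT4G35300) had 6.56, 6.09 and 6.72 after light submergence and 9.40, 9.49 and 9.27 in the control, and fell 7.62-fold (log2 difference -2.93, SE 0.23, adjusted p = 4.52e-06). The samples were apart in both genes. *TMT3* (AT3G51490) lay near background and differed by -0.30. The vacuolar glucose transporter gene *VGT2* (AT5G17010) fell 1.55-fold (adjusted p = 0.0220), and this call was lost without control replicate 2 or 3 or light submergence replicate 3, with adjusted p from 0.0577 to 0.0892.

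Of 20 genes listed for sucrose and starch turnover, 2 were named in the annotation. *SPS4F* (AT4G10120), which encodes a sucrose phosphate synthase, an enzyme that makes sucrose in the leaf, had 9.04, 9.04 and 10.37 after light submergence and 11.42, 11.15 and 11.25 in the control. The third submerged sample was the highest of its condition but still below the controls, and the gene fell 3.47-fold (log2 difference -1.79, SE 0.31, adjusted p = 0.000812). *VINV1* (AT1G62660), which encodes a vacuolar invertase that splits sucrose, differed by 0.22 and did not pass. Of 19 other genes listed for amino acid transport, 2 were named in the annotation. *BAC1* (AT2G33820), whose protein carries basic amino acids into mitochondria, had 7.69, 6.83 and 6.61 after light submergence and 8.52, 8.46 and 8.64 in the control, and fell 2.82-fold (log2 difference -1.50, SE 0.29, adjusted p = 0.00185). *GAT1* (AT1G08230), whose protein carries gamma-aminobutyric acid, had 7.60, 7.55 and 8.04 after light submergence and 7.66, 6.76 and 6.03 in the control, and the difference of 0.91 did not pass (adjusted p = 0.0942), although it did after quantile normalization (adjusted p = 0.0247) and without control replicate 1 (adjusted p = 0.0159). None of the 15 genes listed for nitrate and ammonium assimilation, of the 12 for the phosphate response or of the 6 phloem markers was named in the annotation, so none was analysed here.

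**Figure D5:**
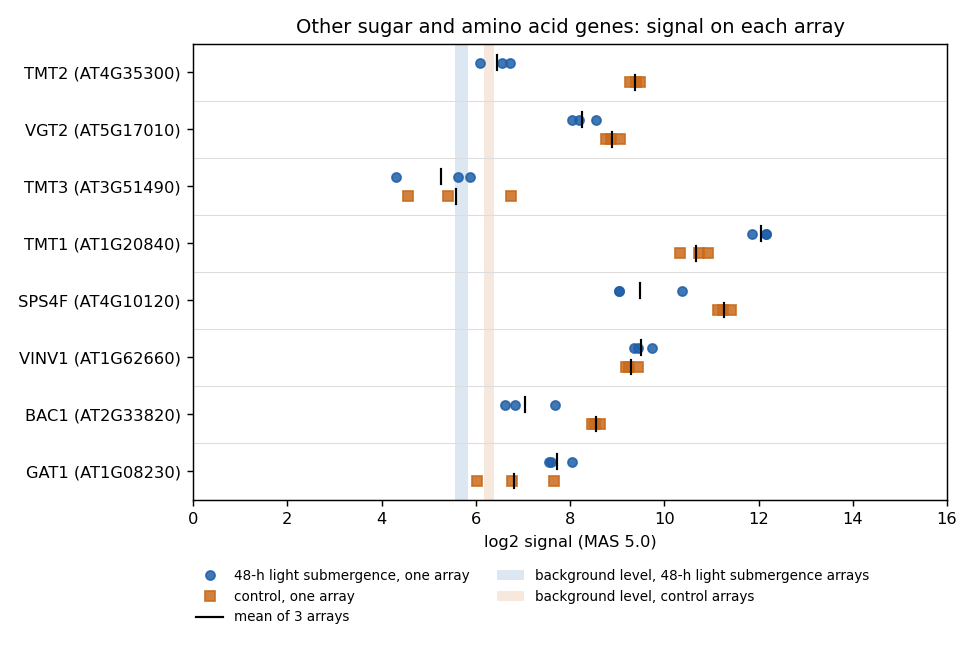
Log2 signal (x axis) of 8 other genes of sugar transport, sucrose turnover and amino acid transport, 1 row per gene, with circles for the 3 light submergence arrays, squares for the 3 control arrays, ticks for the means and shaded bands for the range of background levels. *TMT1* is brighter and *TMT2* dimmer after light submergence, each with the conditions apart.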

How the data were processed

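The authors hybridised ATH1 arrays and summarised each probe set with MAS5 per the labels (version not given in the sources used). What was deposited is a log2 signal per probe set, which the authors had scaled to a common 2% trimmed mean of the linear signal on each array. Samples were grouped by the deposited labels into 3 light submergence and 3 control arrays, whose number limits the precision.

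Gene names came from the array's annotation and were matched to loci of the TAIR10.1 gene table (13436 of 13513). The rule for members was the symbol pattern, with 1 probe set per gene. Every changed member was named, together with up to 8 members per substrate group in full and up to 3 changed genes in each direction of the other lists. A few dim members and relatives were named beyond that after their values were seen. The members and lists were chosen with earlier results of these data known.

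Log2 signals were compared with limma 3.58.1 (R 4.3.3) using moderated variances, a trend with the mean signal, no replicate block and Benjamini-Hochberg adjustment over 22746 probe sets. The script was checked on simulated data. A lower-bound fold was computed against the 40th percentile of each array where 1 or more arrays of a condition did not exceed it, with those arrays set to that level. Samples with the same replicate number did not deviate together (r from -0.01 to 0.06), so the numbers were not taken as pairs. The alternatives tried were 2 other scalings (quantile normalization and the 75th percentile), an offset of 32 on the signal, a filter on dim probe sets, a fit without the variance trend, a replicate block, single arrays left out, and other thresholds and background percentiles. Python 3.11.15 with matplotlib 3.10.9 drew the figures. Promoter motifs and sequences were not analysed here.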

Additional observations from a re-analysis of the deposited data

How the results depend on the processing

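The calls of *NRT2.5*, *SWEET17* and *SWEET2* were the same under every alternative run. Among 48 single genes (members, relatives and listed genes), 515 values under the alternatives kept their sign and their side of the threshold, 22 lost the call and 5 gained it. No value of a called gene changed sign, but 17 values of 9 genes that did not pass did, among them *SWEET3*, *SWEET6*, *SWEET9* and *SWEET13*. The gains were *SWEET7* with an offset of 32 added to the signal (adjusted p = 0.0472), *SWEETIE* without light submergence replicate 3 (adjusted p = 0.0219), *SWEET5* without light submergence replicate 2, and *GAT1* after quantile normalization (adjusted p = 0.0247) and without control replicate 1 (adjusted p = 0.0159). Without the variance trend, *SWEET1*, *SWEET11* and *VGT2* lost their calls (adjusted p = 0.0993, 0.0880 and 0.0641), and the changed SWEET genes numbered 3 in place of 5. *VGT2* also fell under 1.5-fold with the offset. Of the 15 transporter genes, 3 in place of 6 passed at an adjusted p under 0.01, and 4 to 5 when 1 array was left out, of which 3 to 4 were SWEET genes. The median difference of the SWEET genes changed sign. It was -0.46 as reported, 0.0095 after quantile normalization and lay between -0.51 and 0.18 with single arrays omitted. Transporter genes above background on at least 1 array numbered 15 in place of 9 with the background at the 30th percentile. With the replicate block, the changed transporter genes numbered 6 and the changed probe sets 9339 in place of 9684. Of the 48 single genes, *NPF4.3* alone had another call with the block (adjusted p = 0.0568). Over all probe sets, 8788 to 9575 changed when 1 array was left out, and quantile normalization gave 4559 higher and 4792 lower in place of 4159 and 5525. Signal over background limits what can be read of 6 of the 15 genes, which were never above it.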

Other observations

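The sulfate assimilation genes and vacuolar proton pump genes that the annotation names were also measured. Of 12 sulfate assimilation genes listed, 3 were named in the annotation. *APS3* (AT4G14680), which encodes an ATP sulfurylase, had log2 signals of 7.99, 7.33 and 7.54 after light submergence and 9.92, 10.00 and 10.11 in the control, and fell 5.24-fold (adjusted p = 5.75e-06). *APS4* (AT5G43780), another ATP sulfurylase gene, had 11.84, 11.78 and 11.29 after light submergence and 10.38, 10.42 and 10.30 in the control, and rose 2.41-fold (adjusted p = 0.000121). *SIR* (AT5G04590), the sulfite reductase gene, fell 1.82-fold (adjusted p = 0.00131). Of 12 listed proton pump genes, 3 were named there, and these encode isoforms of the membrane subunit a of the proton-pumping ATPase. *VHA-A1*, *VHA-A2* and *VHA-A3* differed by -0.13, 0.06 and -0.41 and did not pass, and the *VHA-A3* difference was under 1.5-fold although its adjusted p was 0.0270. *FAMA*, the only guard cell marker named in the annotation, differed by -0.56 and did not pass (adjusted p = 0.389).

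Many transporter probe sets have no gene in the annotation. Some were named through the first 1998 rows of a supplementary gene table, and 14 of these are described here. Those rows list genes with raised transcripts only, so the 14 were selected for their increase on the same arrays. Their values are a description with no test, and they say nothing about how often such genes rose. The log2 differences of the 14 ran from 0.64 to 5.49 with a median of 2.32. Left out of the 14 were *PHT1;4*, whose probe set has the suffix _s_at, and *NIP2* (AT2G17730). *NIP2* has a synonym with NEP- and was not taken as a water channel of the NIP family. *PHT1;4*, a phosphate transporter gene, was below background in every control and at least 22.8-fold higher (log2 difference 6.20). *NIP2*, not counted as a transporter here, was 4.24-fold higher. The sugar carriers include *STP1* (AT1G11260), a hexose and proton symporter gene, with log2 signals of 14.08, 13.91 and 13.87 after light submergence and 9.49, 9.08 and 10.05 in the control, a 21.3-fold difference. *STP4*, *STP14* and the sucrose symporter gene *SUC1* were 9.10-fold, 5.56-fold and 4.32-fold higher. Among the amino acid permease genes, *AAP3* (AT1G77380) had 10.51, 10.45 and 10.61 after light submergence and 5.23, 3.97 and 5.90 in the control. It was below background in every control and at least 18.6-fold higher after light submergence, while *AAP1* and *AAP5* were 2.85-fold and 2.34-fold higher. The nitrate carrier gene *NRT2:1* (AT1G08090) had 9.13, 7.84 and 8.97 after light submergence and 6.23, 5.24 and 2.83 in the control, and was at least 5.07-fold higher. *NRT1:2*, the ammonium transporter gene *AMT2* and the peptide carrier genes *PTR2* and *PTR6* were 4.62-fold, 5.42-fold, 2.66-fold and 1.56-fold higher. Of these, *NRT1:2*, *PTR2* and *PTR6* belong to the NRT1/PTR family and were not in the family counts above. The sulfate transporter gene *SULTR1;2* was above background in 1 of 3 controls and at least 9.51-fold higher. The only water channel gene among the 14, *SIP1A* (AT3G04090), had 12.65, 12.76 and 12.40 after light submergence and 11.05, 10.65 and 11.03 in the control, a 3.24-fold difference.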
